A study of Mus musculus with 4 samples.

Results

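The CC chemokine genes described here are Ccl2, Ccl5, Ccl7, Ccl8, Ccl9, Ccl11, Ccl17, Ccl20, Ccl25 and Ccl28, taken as the array rows whose only gene symbol is that of the ligand. All 10 were found, each on 1 row, among 22180 genes measured. The cells were BR5FVB1-Akt, a line of mouse ovarian cancer grown in culture, and the assay used Affymetrix Mouse Gene 2.0 ST arrays. There were 2 arrays of cells given 10 uM decitabine for 72 h and 2 arrays of cells cultured without it. All cells were the same line in the same medium, DMEM with serum and antibiotics, and the labels describe no other difference and no vehicle. The labels name the arrays of a group as biological replicates without saying how the cultures were kept apart, so the p-values measure the spread between these 4 arrays. Decitabine is a cytidine analogue that enters replicating DNA and traps DNA methyltransferases, which lowers DNA methylation.

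CC chemokines are small secreted proteins with a pair of adjacent cysteines near the amino end. They bind seven-helix receptors on leukocytes and draw those cells along a gradient, and the receptor decides which leukocyte answers. Many of their genes are silent or weakly transcribed in resting cells and are induced through NF-kappaB, interferon regulatory factors and STAT proteins. In tumours, CC chemokines made by the cancer cells are known to recruit monocytes and macrophages, and also T and NK cells.

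The deposited values span 0.55 to 13.26 and were taken to be log2 expression, on which all fold changes below depend. The medians over all rows were 4.60 and 4.66 on the decitabine arrays and 4.60 and 4.60 on the control arrays. Computed over genes, which do not count as replicates, Pearson's r reached 0.993 for the decitabine arrays, 0.995 for the control arrays and 0.990 to 0.991 across groups. No background level could be set, so a dim row may measure little of its gene, and the number of arrays limits the precision. An exact permutation test of 2 arrays against 2 cannot give a two-sided p below 0.333, so the tests below come from a limma fit across all genes. In cultured bulk RNA, fewer cells making a transcript and less of it per cell cannot be told apart.

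With decitabine, 3 of the 10 CC chemokine genes rose, Ccl5, Ccl2 and Ccl7, and none fell, in a fit whose calls were lost with the replicate block, in a test of all rows and with any 1 array left out. They were 2.85-fold to 4.20-fold higher. In the same fit 0.131% of all genes were called higher and 0.0135% lower. Ccl20 and Ccl17 had log2 fold changes of 1.02 and 0.68 and passed only in some of the other fits. The remaining 5, Ccl8, Ccl9, Ccl11, Ccl25 and Ccl28, lay between −0.22 and 0.15 and passed in none of the fits made. The median log2 fold change of the 10 was 0.41, beside 0.00 over all genes. The 10 were chosen with earlier results of these data known, so these comparisons describe the list and do not test it. Of all 19 measured CC ligands, 3 were called.

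**Figure D1:**
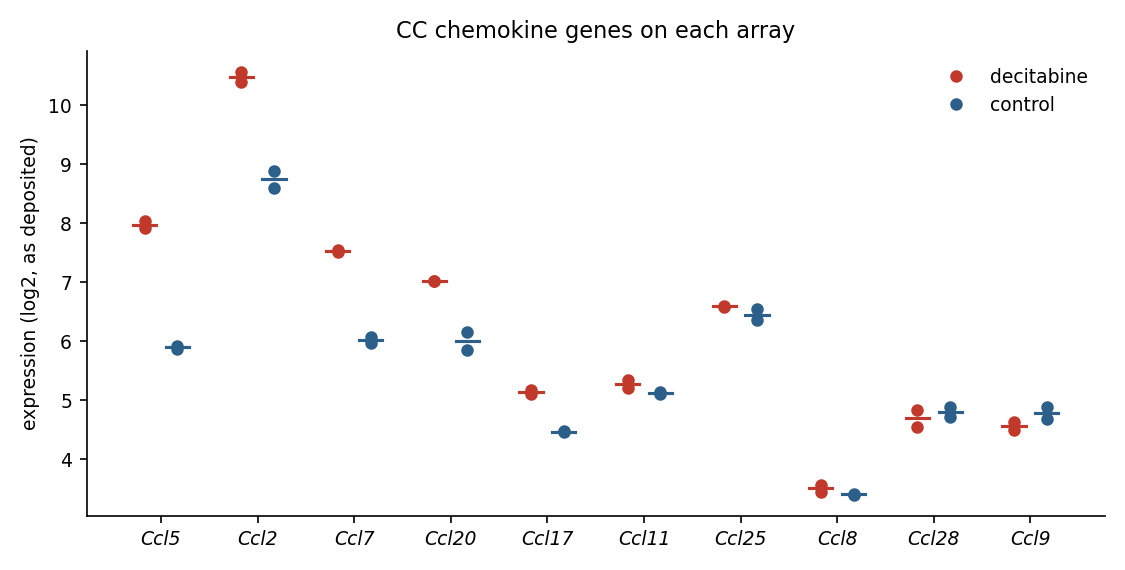
Expression of the 10 CC chemokine genes on each array (vertical axis, log2 as deposited), with the 2 decitabine arrays in red on the left and the 2 control arrays in blue on the right of each gene, and a bar at each group mean. Genes are ordered by fold change, and levels of different genes are not comparable. The groups lie far apart for Ccl5, Ccl2 and Ccl7, less so for Ccl20 and Ccl17, and close together for the others.

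Ccl5, also called RANTES, attracts T cells, NK cells and monocytes. It read 7.91 and 8.03 on the decitabine arrays, against 5.93 and 5.88 on the control arrays. The gap between the groups was many times the spread within either, which was 0.08 (SD, n = 2) with decitabine and 0.03 in controls. The log2 fold change was 2.07 ± 0.10 (SE), a 4.20-fold difference with a 95% confidence interval of 3.50 to 5.03 (limma, adjusted p = 0.0261). Among all 22180 genes Ccl5 ranked 2 by p-value and 5 by the size of the rise.

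Ccl2, also called MCP-1, is the chief ligand of Ccr2 and brings monocytes out of the blood into tissue. Its values were 10.39 and 10.56 on the decitabine arrays, against 8.88 and 8.60 on the control arrays. The groups did not overlap, and the control arrays lay further apart than the decitabine arrays. The log2 fold change of Ccl2 was 1.73 ± 0.14, or 3.33-fold with an interval of 2.59 to 4.27 (adjusted p = 0.0442). This call stood close to the threshold and was lost with robust eBayes (adjusted p = 0.0527), at the same fold change.

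Ccl7, also called MCP-3, is a close relative of Ccl2 that likewise binds Ccr2, along with Ccr1 and Ccr3. It read 7.52 and 7.55 on the decitabine arrays, against 5.97 and 6.08 on the control arrays. Both decitabine arrays stood well above both control arrays, and the replicates of each group lay close together. Ccl7 rose by 1.51 ± 0.10 on the log2 scale, a 2.85-fold difference with an interval of 2.39 to 3.41 (adjusted p = 0.0401). The intervals of Ccl5 and Ccl2 overlap, as do those of Ccl2 and Ccl7, and differences between the genes' responses were not tested.

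When 1 array was left out, the log2 fold change ranged from 2.01 to 2.13 for Ccl5, from 1.59 to 1.88 for Ccl2 and from 1.46 to 1.56 for Ccl7. In limma without an intensity trend none of the 3 was called with 3 arrays, whichever was left out, nor on 4 arrays with the replicate number as a block (adjusted p = 0.106 for Ccl5, 0.145 for Ccl2 and 0.116 for Ccl7) or in a fit of all rows (0.282, 0.330 and 0.313). With 3 arrays their adjusted p lay between 0.132 and 0.204 without decitabine replicate 1 or 2, was 0.566 without control replicate 1 and 0.528 without control replicate 2. An intensity trend lets the expected variance depend on a gene's level, and here it allotted less to bright rows than to dim ones. With such a trend all 3 were called on the 4 arrays. They were also called with any 1 array left out, a check chosen after seeing the data, which leaves 1 group with a single array and takes that array to vary like the 2 of the other group. In the trend fit on 4 arrays the adjusted p was 2.65e-06 for Ccl5, 5.21e-06 for Ccl2 and 1.73e-05 for Ccl7.

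**Figure D2:**
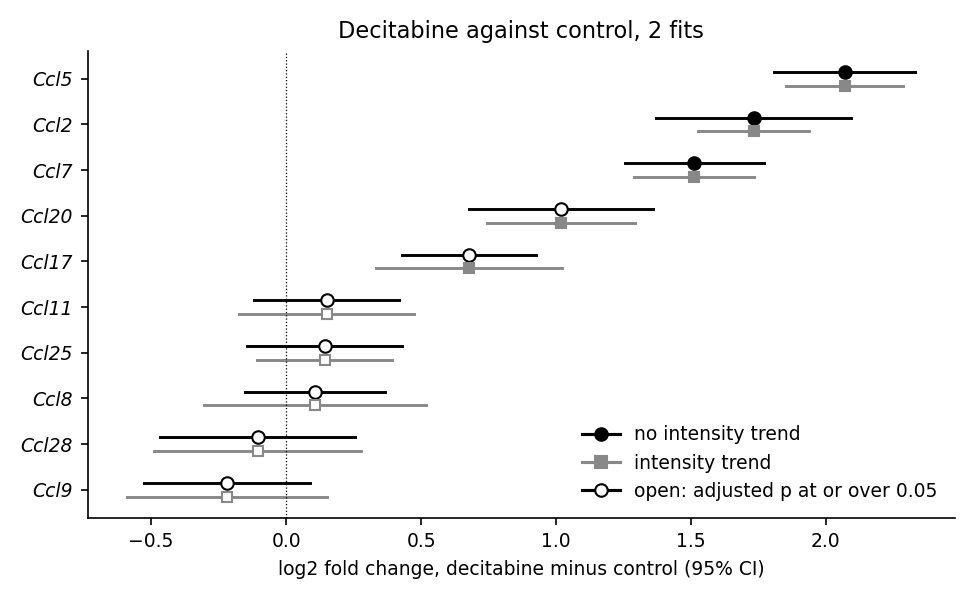
Log2 fold change, decitabine minus control, of each CC chemokine gene with its 95% confidence interval, from the fit without an intensity trend (black circles) and with one (grey squares). Filled symbols have an adjusted p under 0.05, which holds in both fits for Ccl5, Ccl2 and Ccl7 and with the trend for Ccl20 and Ccl17. The trend narrows the interval of Ccl2 and widens that of the dim Ccl8.

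Ccl20 is the ligand of Ccr6, found on Th17 cells, regulatory T cells, B cells and immature dendritic cells, and epithelia make it when stimulated. It read 7.01 and 7.03 on the decitabine arrays, against 6.15 and 5.85 on the control arrays. The decitabine arrays were nearly equal and lay above both control arrays, which differed more. The log2 fold change of Ccl20 was 1.02 ± 0.13, or 2.03-fold with an interval of 1.60 to 2.57, and its adjusted p was 0.0977. With the intensity trend Ccl20 passed (adjusted p = 6.99e-04), and again when genes below the 25th percentile of level (adjusted p = 0.0414) or below the median level (adjusted p = 0.00682) were left out before the fit. With the trend and any 1 array left out, its adjusted p lay between 0.00176 and 0.0303. With the trend fitted on all rows of the array Ccl20 did not pass (adjusted p = 0.0588).

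Ccl17, also called TARC, attracts Th2 and regulatory T cells through Ccr4. Its values were 5.18 and 5.12 on the decitabine arrays, against 4.49 and 4.46 on the control arrays. The SD of the replicates was 0.05 with decitabine and 0.02 in controls, and the groups were separate. The log2 fold change of Ccl17 was 0.68 ± 0.10, or 1.60-fold with an interval of 1.35 to 1.90 (adjusted p = 0.106). With the intensity trend, which allots more variance to a row of this level, its SE was 0.16 and its adjusted p 0.0259. Without genes below the 25th percentile it was 0.0430. With the trend and any 1 array left out, the adjusted p of Ccl17 lay between 0.0530 and 0.204, and with the trend fitted on all rows it was 0.154. By p-value Ccl20 ranked 132 and Ccl17 ranked 183 of all genes.

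In the fit with the trend, 5 of the 10 CC chemokine genes were called higher and 0 lower, while 3.68% of all genes were called higher and 3.60% lower. With p under 0.05 before adjustment, 5 members were higher and 0 lower, beside 7.34% and 6.97% of all genes. The decitabine arrays both lay above the control arrays for 8 of the 10, beside 23.4% of all genes, and both below for Ccl9, beside 22.5%. Ccl28 alone had overlapping arrays.

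Of the members that did not pass, Ccl8 and Ccl11 sit in the same chromosome 11 group as Ccl2 and Ccl7. Ccl11, or eotaxin, attracts eosinophils through Ccr3. It read 5.35 and 5.20 with decitabine and 5.11 and 5.14 in controls, with a log2 fold change of 0.15 ± 0.11 and an upper bound of 1.34-fold. Ccl8, which in the mouse acts through Ccr8, read 3.45 and 3.57 with decitabine and 3.41 and 3.41 in controls. Its log2 fold change was 0.11 ± 0.10 with an upper bound of 1.29-fold, or 1.43-fold with the wider error of the trend fit. Ccl8 was the single member below the 25th percentile of level, where a change in the transcript may not reach the measured value.

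Ccl9, a Ccr1 ligand that attracts myeloid cells and osteoclast precursors, lies next to Ccl5. It read 4.63 and 4.50 with decitabine and 4.88 and 4.69 in controls, at a log2 fold change of −0.22 ± 0.12 (adjusted p = 0.481). Both decitabine arrays were the lower ones, but the nearest arrays of the groups, 4.63 and 4.69, lay closer together than the replicates of either group. Ccl25, which guides thymocytes and gut T cells by way of Ccr9, read 6.60 and 6.59 with decitabine and 6.35 and 6.55 in controls (0.14 ± 0.11). Ccl28 is a mucosal chemokine for Ccr10 and Ccr3. It read 4.55 and 4.84 with decitabine and 4.89 and 4.71 in controls (−0.11 ± 0.14), and its arrays overlapped. For each of the 5 that did not pass, the 95% interval left out a 2-fold rise in the fits with and without the trend.

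Ccl2, Ccl7, Ccl11, Ccl12, Ccl8 and Ccl1 follow one another on chromosome 11 with no other protein-coding gene between them in the RefSeq annotation of GRCm38.p6, and so do Ccl5, Ccl9, Ccl6, Ccl3 and Ccl4. Of these 11 neighbouring genes 3 rose and 8 did not pass. In the first run Ccl2 and Ccl7, at its end, were the genes called among its 6. The log2 fold changes of the next 4 were 0.15, −0.15, 0.11 and −0.07 in gene order. Ccl12, Ccl8, Ccl1 and, in the second run, Ccl6 were not above the 25th percentile of level. A change in the transcript of such dim rows may not reach the measured value. Ccl12, which is known as MCP-5 and binds Ccr2 as Ccl2 does, read 2.90 and 2.77 with decitabine and 2.90 and 3.07 in controls, at the dim end of the arrays. In the second run Ccl5 rose, while Ccl6 (−0.02 ± 0.21) and Ccl3 (0.00 ± 0.11), a macrophage inflammatory protein, lay at 0. Ccl4, another macrophage inflammatory protein, was at 0.42 ± 0.14 (adjusted p = 0.300). It read 5.28 and 5.39 with decitabine and 4.76 and 5.08 in controls, and it did not pass with the trend (adjusted p = 0.184). Whether neighbours differed from each other in their response was not tested.

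**Figure D3:**
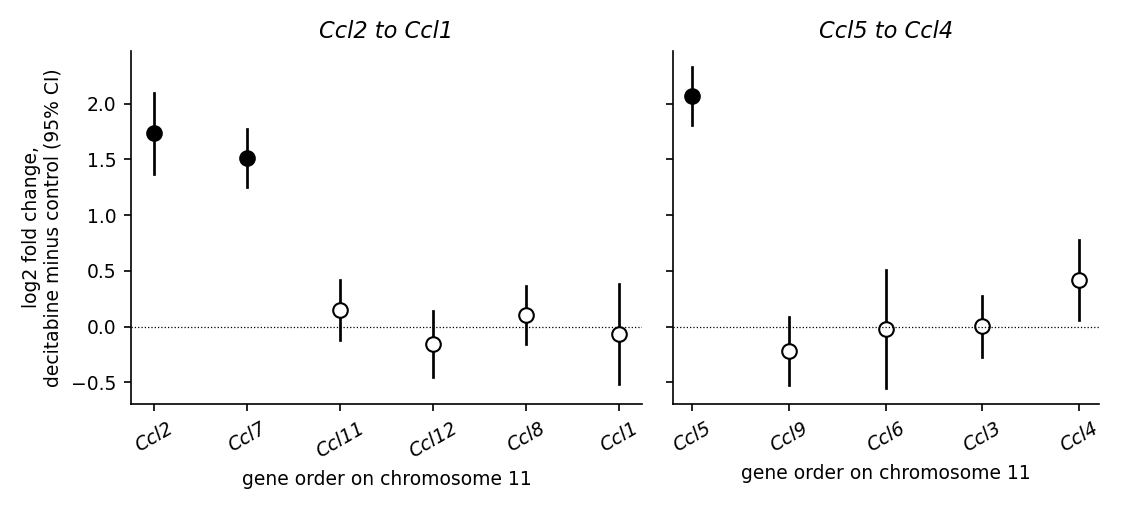
Log2 fold change, decitabine minus control, with 95% confidence interval for 11 CC chemokine genes of chromosome 11, in gene order and not to distance, with the run from Ccl2 to Ccl1 on the left and that from Ccl5 to Ccl4 on the right. Filled points have an adjusted p under 0.05 without an intensity trend. Ccl2, Ccl7 and Ccl5 stand above 1.5, and the other 8 lie below 0.5.

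The remaining CC ligands with a row of their own did not pass in the fits with or without the trend. Besides those of chromosome 11 they were Ccl22, which shares Ccr4 with Ccl17 (−0.09 ± 0.23), the eosinophil attractants Ccl24 (0.03 ± 0.10) and Ccl26 (−0.25 ± 0.12), and the skin chemokine Ccl27a (−0.24 ± 0.13). The Ccl27a row had the same values on every array as some rows that carry several symbols. Which copy of the gene it measured is therefore uncertain, though it is counted among the measured ligands. Ccl22 lies beside Ccl17 on chromosome 8, with Cx3cl1 between them. Over the 9 measured ligands that are not among the 10, the median log2 fold change was −0.07, beside 0.00 over all genes. Both lists were chosen with earlier results of these data known, so the contrast between them is not a test.

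Promoters are shown for members that passed in some fits and for members that passed in none. RefSeq's GRCm38.p6 promoter table matched 6 of the 10 members by symbol. It had no entry for Ccl2, Ccl5, Ccl7 or Ccl11. The windows below are therefore not those of the genes that rose, Ccl5, Ccl2 and Ccl7. The 250 bases before the start are shown for Ccl20 and Ccl17, which passed with the trend, and for Ccl8 and Ccl9, chromosome 11 neighbours of the genes that rose, a choice made after the values were seen. Ccl20 lies at chr1:83116516-83116765 on the plus strand, Ccl17 at chr8:94810203-94810452 plus, Ccl8 at chr11:82114935-82115184 plus and Ccl9 at chr11:83578637-83578886 minus. Each reads 5′ to 3′ along its gene, and capitals mark matches on either strand to a loose NF-kappaB pattern, GGG and CC with any 5 bases between them.
Ccl20: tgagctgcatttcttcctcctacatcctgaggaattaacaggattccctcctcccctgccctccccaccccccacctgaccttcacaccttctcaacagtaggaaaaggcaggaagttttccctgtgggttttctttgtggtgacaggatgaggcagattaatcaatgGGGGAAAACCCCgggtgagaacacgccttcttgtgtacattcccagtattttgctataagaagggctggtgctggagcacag
Ccl17: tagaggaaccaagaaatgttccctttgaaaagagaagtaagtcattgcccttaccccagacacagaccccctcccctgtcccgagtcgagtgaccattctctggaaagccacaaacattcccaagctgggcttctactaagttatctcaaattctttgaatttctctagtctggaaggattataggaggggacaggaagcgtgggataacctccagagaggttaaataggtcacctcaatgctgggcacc
Ccl8: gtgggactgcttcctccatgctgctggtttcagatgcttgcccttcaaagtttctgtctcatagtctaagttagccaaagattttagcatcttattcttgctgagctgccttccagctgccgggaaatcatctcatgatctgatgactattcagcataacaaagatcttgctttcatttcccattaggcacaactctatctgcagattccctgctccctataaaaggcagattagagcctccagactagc
Ccl9: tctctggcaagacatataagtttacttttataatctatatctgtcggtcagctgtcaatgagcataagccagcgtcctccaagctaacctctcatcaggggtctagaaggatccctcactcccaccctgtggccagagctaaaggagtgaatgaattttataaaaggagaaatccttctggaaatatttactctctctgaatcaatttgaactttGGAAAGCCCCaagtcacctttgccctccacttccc

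The Ccl20 window held 4 overlapping matches, all in 1 stretch between 82 and 71 bases before the start. Strands were counted apart, and from 81 to 72 the same bases matched on both. The Ccl9 window held 1 match, from 35 to 26 bases before the start. The Ccl17 and Ccl8 windows held 0. This pattern is common, present in 45.8% of 32851 promoter windows of the same length. An interferon-response pattern, GAAA repeated after any 2 bases and searched on both strands, was found in 3.0% of windows and was in none of the 4 windows. The AP-1 pattern TGANTCA reads the same on both strands and was found in 6.7% of windows, and of the 4 it was in that of Ccl9, from 53 to 47 bases before the start. CpG sites, at which DNA methylation occurs, numbered 2 in the Ccl20 window, 3 in Ccl17, 1 in Ccl8 and 2 in Ccl9, beside a median of 6 over all windows. Ccl28 had 4, and Ccl25 had 45 in the window of its outer start and 0 in that of its inner start. These letters describe the windows, and neither methylation nor factor binding was measured.

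None of the 10 CC chemokine receptors followed here passed. They had a median log2 fold change of 0.11. The smallest p-values were those of Ccr10, receptor for Ccl28, at −0.35 ± 0.10 (adjusted p = 0.256), and of Ccr7, which guides T and dendritic cells to lymph nodes, at 0.43 ± 0.18 (adjusted p = 0.370). Receptors bound by Ccl2 or Ccl7 were at 0.09 ± 0.14 for Ccr2, 0.08 ± 0.10 for Ccr1 and 0.10 ± 0.21 for Ccr3. Ccr6, the receptor of Ccl20, was at 0.23 ± 0.13 and Ccr4, that of Ccl17, at 0.11 ± 0.15. Ccr9, that of Ccl25, was at 0.13 ± 0.11 and Ccr8 at 0.00 ± 0.11. Among 6 atypical receptors, most of which bind chemokines without the usual signalling, none passed, with Ackr4, a scavenger of Ccl25, at −0.34 ± 0.10 and Ccrl2 at 0.33 ± 0.12. With the trend 0 conventional and 0 atypical receptors were called. Before adjustment, p was under 0.05 for Ccr10 alone among the conventional receptors and for Ackr4 and Ccrl2 among the atypical ones. Over all genes 7.34% were higher and 6.97% lower at that p.

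Genes known to switch CC chemokine genes on or off were followed from lists chosen with earlier results of these data known. No gene of the lists of inducers, transcription factors, brakes, or processing and presentation passed in limma on all genes as deposited without a trend. With arrays centred on their medians, 1 of 17 transcription factors and 1 of 14 processing genes passed as higher, beside 43 of 22180 genes. Without genes below the 25th percentile of level, 2 of 17 transcription factors, 1 of 10 brakes and 1 of 13 processing genes passed as higher. In that fit 151 of 16635 genes were called higher. Genes named here for passing with the trend were named after their values were seen. With the trend, 3.68% of all genes were called higher and 3.60% lower. These shares are the background for the trend counts of every list below, the cell type markers included. Among 17 inducers and their receptors, 2 passed with the trend as higher. They were the cytokine Il1a, at 4.94 and 4.83 with decitabine and 3.65 and 4.03 in controls (1.05 ± 0.16, adjusted p = 0.110, with the trend 0.00739), and the RNA receptor Tlr3 (0.43 ± 0.13). Il6 was at 0.55 ± 0.15 (adjusted p = 0.228). The list's median was 0.09, and before adjustment 3 members had a p under 0.05, all higher, beside 7.34% of all genes.

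Of 17 measured transcription factors of CC chemokine genes, 3 passed with the trend as higher and 0 as lower. Irf7, a factor of the interferon response, read 7.77 and 8.12 with decitabine and 6.31 and 6.10 in controls (1.74 ± 0.16, adjusted p = 0.0564, with the trend 3.49e-05). Nfkb2, the NF-kappaB subunit of the non-canonical pathway, read 8.18 and 8.08 with decitabine and 7.29 and 7.25 in controls (0.86 ± 0.10, adjusted p = 0.0762, with the trend 1.91e-04). The third was Stat2 (0.46 ± 0.15). The median of the list was 0.15. With p under 0.05 before adjustment, 5 members were higher and 2 lower, beside 7.34% and 6.97% of all genes.

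Brakes on chemokine expression are often induced by the factors they restrain. Of 10 such genes, 3 passed with the trend as higher, the deubiquitinase Tnfaip3 (0.81 ± 0.10), Nfkbie (0.49 ± 0.15) and Nfkbia (0.27 ± 0.10), the last 2 being inhibitors that hold NF-kappaB in the cytoplasm. Zfp36l1, which destabilises mRNA, passed as lower (−0.19 ± 0.09). Tnfaip3 read 6.55 and 6.56 with decitabine and 5.80 and 5.69 in controls. The median log2 fold change of the 10 was 0.09.

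Among 14 measured genes of chemokine processing and presentation, 2 passed with the trend as higher. They were the hyaluronan receptor Cd44 (1.54 ± 0.14, adjusted p = 0.0552, with the trend 2.69e-04) and Tnfaip6, a secreted protein that binds chemokines (0.41 ± 0.11). Cd44 read 5.98 and 5.95 with decitabine and 4.26 and 4.58 in controls. Dpp4, the protease that trims Ccl5 and Ccl11, was at 0.12 ± 0.18. The median of the list was 0.18.

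**Figure D4:**
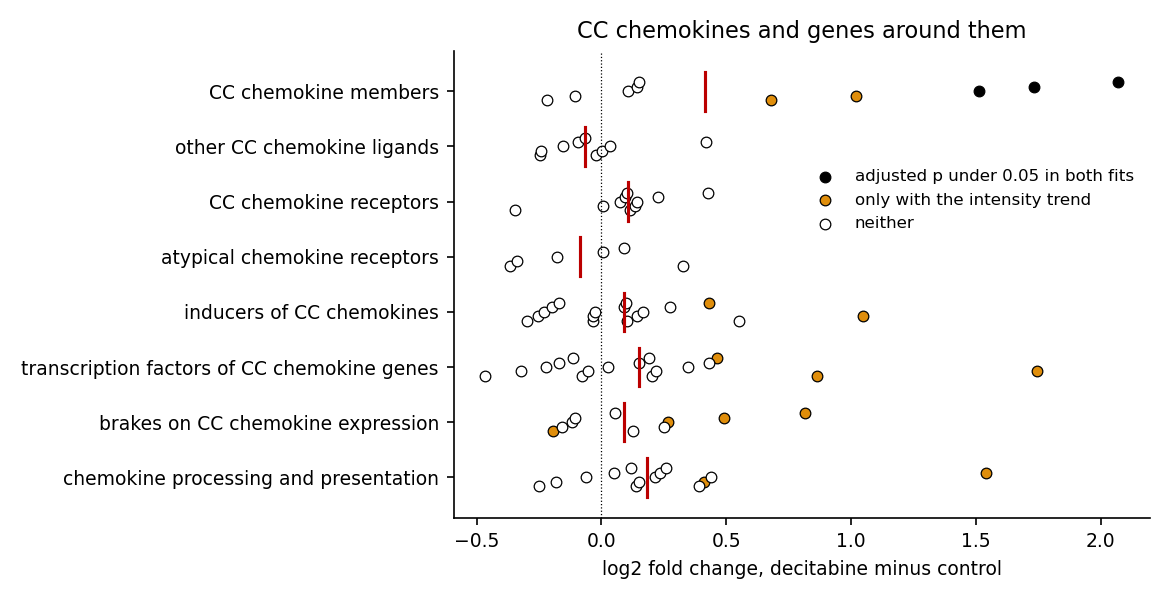
Log2 fold change, decitabine minus control, of every measured gene of 8 lists, with a red line at each list's median. Black points have an adjusted p under 0.05 with and without the intensity trend, orange points with the trend only, and white points in neither. Among these lists, black points occur only in the 10 CC chemokine genes, at 1.51 to 2.07, while other ligands and receptors are white throughout.

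Leukocytes are the usual source of several of these ligands, and their markers were read on the same arrays. Of 15 measured leukocyte markers none passed in the fit of all genes without the trend. Among genes above the median level 1 of 3 was higher, beside 635 of 11090 genes. The mean level of the 15 markers was 4.14 and 4.23 on the decitabine arrays and 4.09 and 4.05 on the control arrays. Their median log2 fold change was 0.16, with 2 higher by p under 0.05 before adjustment, and 8 of 15 lay below the 25th percentile of level. The pan-leukocyte marker Ptprc read 3.24 and 3.16 with decitabine and 3.01 and 3.07 in controls. The 2 smallest p-values in limma were those of Itgam, of myeloid cells, at 0.50 ± 0.11 (adjusted p = 0.191), and of Cd68. Itgam lay below the 25th percentile of level. Cd68, a lysosomal protein abundant in macrophages, was at 0.45 ± 0.10 and passed with the trend (adjusted p = 0.0216). The markers lower with decitabine were Ly6g (−0.38 ± 0.20), Itgax (−0.24 ± 0.17), Ms4a1 (−0.11 ± 0.12) and Adgre1 (−0.08 ± 0.21). All others of the list had positive log2 fold changes. The part of leukocytes in the rises of Ccl2, Ccl5 and Ccl7 was not tested.

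Ovarian epithelial markers were bright in part. Krt18 read 9.57 and 9.55 with decitabine and 9.25 and 9.22 in controls, and Wt1 10.56 and 10.53 with decitabine and 10.78 and 10.86 in controls. Epcam lay lower, at 4.99 and 4.76 with decitabine and 4.68 and 4.62 in controls, and Pax8 lower still, at 3.62 and 3.61 with decitabine and 3.50 and 3.46 in controls. In the fit of all genes without the trend none of the 10 passed, with Msln at 0.86 ± 0.10 (adjusted p = 0.0762) and Krt8 at 0.53 ± 0.13, while Msln, Krt8, Krt18 and Krt19 passed as higher and Wt1 as lower with it. Leaving out genes below the 25th percentile of level before the fit gave 1 of 9 higher, beside 151 of 16635 genes. Leaving out those below the median level gave 3 of 7 higher, beside 635 of 11090 genes. Of 8 endothelial and fibroblast markers none passed in the fit of all genes without the trend, with Thy1 at 1.48 ± 0.17 (adjusted p = 0.0762) and Kdr at 0.38 ± 0.12. With the trend Thy1 passed as higher and the bright fibroblast marker Pdgfra as lower (−0.28 ± 0.10, adjusted p = 0.00976). With the same filters on level 1 of 8 and 1 of 6 were higher, beside the same counts over all genes. Their part in the CC chemokine values was not tested.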

How the data were processed

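Per the labels' protocols, total RNA was biotin-labelled with a whole-transcript kit for Affymetrix Mouse Gene 2.0 ST arrays, 2 per group. The deposited table holds the authors' values, read here as log2; log base, summarisation, background correction and normalization are not given in the sources used here. Groups come from the sample titles. Of 41345 rows, 23521 carried 1 symbol in the platform annotation; the others were left out of gene tests. The highest-mean row per gene was kept, and 0 columns were of other series. Genes were fitted with limma 3.58.1 in R 4.3.3 (lmFit, eBayes without trend, group alone in the design, two-sided, prior of 3.07 degrees of freedom). P-values were adjusted by Benjamini-Hochberg over 22180 genes at 0.05. The fit was also run on simulated data with independent noise whose variances came from the trend fit. Such data hold no effect shared by an array and cannot test for one. Fold changes are decitabine over control, with limma's SE and 95% intervals.

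The members and lists were chosen with earlier results of these data known. The rule for named genes took all members, every other measured CC ligand, the members' receptors, and the 2 smallest p-values and all calls of each list. Dpp4, Epcam, Pax8, Ptprc, Ly6g, Itgax, Ms4a1, Adgre1 and genes called only with the trend were named outside it, after their values were seen. Replicate numbers were not taken as pairs: deviations of same-numbered arrays correlated at −0.018. Alternatives covered scaling, filters on level, variance model, replicate block, rows and left-out arrays. Motifs were searched in RefSeq promoters (GRCm38.p6). Figures were drawn with matplotlib 3.10.9.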

Additional observations from a re-analysis of the deposited data

How the results depend on the processing

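Ccl5 and Ccl7 were called in 7 and Ccl2 in 6 of 13 alternatives each, and their log2 fold changes kept their sign in all of them. The count of members called higher was 5 without genes below the 25th percentile of level and with the intensity trend, and 0 with the replicate block (over all genes, an adjusted p of 0.106 or more) and in a test of all rows (0.282), both in limma, where 5 members were higher at an unadjusted p under 0.05. The calls were also lost with 1 array left out, a fit that leaves 1 group with a single array and fewer degrees of freedom. Why they were lost was not tested. With the trend and the replicate block together, added after seeing the data, the count of members called higher was 5. No member was called lower. Over all genes, 29 higher and 3 lower became 151 and 64 above the 25th percentile, 635 and 616 above the median level, 817 and 798 with the trend, 15 higher with robust eBayes, 8 lower with centred arrays, 5 lower with the mean of a gene's rows, 0 and 0 with the block (2815 at an unadjusted p under 0.05) and in all rows, and 0 to 0 with 1 array left out. Genes of the other lists, 0 and 0 as reported, were 2 higher with centred arrays, 6 higher above the 25th percentile, 9 higher above the median level, and 16 higher and 3 lower with the trend. Ccl28 ranged from −0.247 without decitabine replicate 2 to 0.036 without decitabine replicate 1 (adjusted p = 0.926, and 0.951 with the trend), and so changed sign. The causes were not tested. Dim rows limit what can be read for Ccl8, for Ccl1, Ccl6, Ccl12, Ccl24 and Ccl26, and for most receptors.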

Other observations

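Ccl19, Ccl21 and the Ccl27 pair have several near-identical gene copies in the mouse, and rows that carry their symbols beside others were left out of the tests. Ccl19 and Ccl21 proteins guide T and dendritic cells through Ccr7. Over 13 such rows, Ccl19 averaged 5.14 and 5.30 on the decitabine arrays and 5.10 and 5.19 on the control arrays, with a median difference of 0.05 and a range of 0.01 to 0.33. Over 9 rows, Ccl21 averaged 5.13 and 5.47 with decitabine and 5.29 and 5.28 in controls, with a median difference of 0.00. The 11 rows of Ccl27 averaged 6.13 and 6.08 with decitabine and 6.32 and 6.23 in controls, and their differences ran from −0.25 to −0.09. Rows of copies share sequence and are not independent, and which copy they measured is uncertain.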
